A study of Mus musculus with 6 samples.

Results

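The genes described here are 36 immediate early, AP-1 and KLF genes out of 19937 genes measured. They were chosen by gene family and known role, with earlier results of these data known. Each member had 1 probe set that names it alone, and all 36 were measured. The study compared plasmacytoid dendritic cells (pDCs), the dendritic cells known for secreting type I interferon, between 2 genotypes of mice. IRF8-deficient (KO) cells gave 3 arrays and wild-type (WT) cells gave 3, and both were taken from spleen as cells bearing B220 and SiglecH. The sources used here give no allele, strain, age or number of animals, nor do they say whether IRF8 was lost from all cells or from some lineages. No label says that the replicates came from separate animals, so p-values rest on a spread between samples that could be technical.

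Immediate early genes are transcribed within minutes of a stimulus, from transcription factors that are already present in the cell, and many of their RNAs decay quickly. FOS and JUN proteins pair to form the AP-1 transcription factor, EGR and NR4A proteins are further nuclear factors of the first wave, and DUSP phosphatases and ZFP36 switch the response off. The same genes are known to respond to cell isolation and to heat, so heat shock chaperones and other rapid genes are given beside them. KLF factors are zinc finger proteins, some induced rapidly and others steady regulators of leukocyte quiescence and trafficking.

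All levels are deposited log2 values, and differences are KO minus WT in log2 units with the fit's standard error (SE). The array medians lay between 5.53 and 5.56, and the quartiles of the gene means were 4.58, 5.69 and 7.21. Levels are compared between arrays, and levels of different genes are not set against each other. Genes were called at a limma adjusted p under 0.05 over all genes, and with 3 arrays against 3 an exact permutation test of a single gene cannot give a p below 0.10. In bulk samples, fewer cells of a type and less RNA per cell cannot be told apart. Irf8 measured 10.15, 10.49 and 10.79 in KO arrays against 10.21, 9.97 and 10.24 in WT arrays (adjusted p = 0.425), and where its probe set lies relative to the altered part is not given, so it does not check the labels. Of 10 measured pDC markers, 0 were higher and 2 lower in KO (median difference -0.32, range -0.97 to 0.42), and in 6 the KO values lay below the WT range. The lower ones were Ccr9 by -0.97 (adjusted p = 0.0221) and Pacsin1 by -0.78 (adjusted p = 0.00746). Siglech, the gene of a sorting antigen, measured 12.18 to 12.34 in KO and 12.52 to 12.75 in WT (adjusted p = 0.169). Without detection calls, the presence of a marker was not tested. KO replicate 1 stood apart: the median of 11 neutrophil genes was 9.25 in that array and 5.04 to 5.61 in the other KO arrays, against 4.62 to 5.34 in WT arrays. S100a8, 1 of the 11, also varied among the other arrays. It measured 12.70, 8.99 and 7.48 in KO replicates 1 to 3, against 9.34, 4.87 and 4.44 in WT replicates 1 to 3.

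Of the 36 members, 2 rose in KO and 0 fell, where 4.38% of all genes were called in either direction, 2.3% as higher and 2.08% as lower. The risers were Ier3, an early gene that affects cell survival, and Maff, a small MAF protein that lacks an activation domain. The other 34 passed in neither direction, although 15 of the 36 members had an unadjusted limma p under 0.05, against 16.1% of all genes. The members' median difference was 0.25, with 30 differences above 0 and 6 below, beside a median of -0.037 over all genes, of which 41.8% lay above 0. In 11 of the 36 members the 3 KO values lay above the WT range, against 8.71% of all genes. In 2 of the 36 they lay below it, against 11.7% of all genes. These shares are over all genes, dim ones included, whereas 35 of the 36 members lay above the median level. In a fit of the 9968 genes above it, 8.7% were called, 4.77% as higher and 3.93% as lower, and 4 members rose and 0 fell. The other shares were not computed for those genes. Because the members were chosen with earlier results of these data known, no test was run over the list. The count of calls changed with the arrays used. With KO replicate 1 left out, 9 members rose and 0 fell, beside 3.91% of all genes called higher, 3.61% called lower and 7.52% in either direction. The additional calls were Fosl2, Junb, Atf3, Batf, Nr4a2, Dusp2 and Gadd45b. Without KO replicate 2, KO replicate 3, WT replicate 1 or WT replicate 3, only Ier3 rose, and without WT replicate 3 Rhob fell. In those fits, in the same order, 2.26%, 2.32%, 3.28% and 2.52% of all genes were called in either direction. Calls were thus fewer over the whole table as well, against 4.38% with all 6 arrays.

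**Figure D1:**
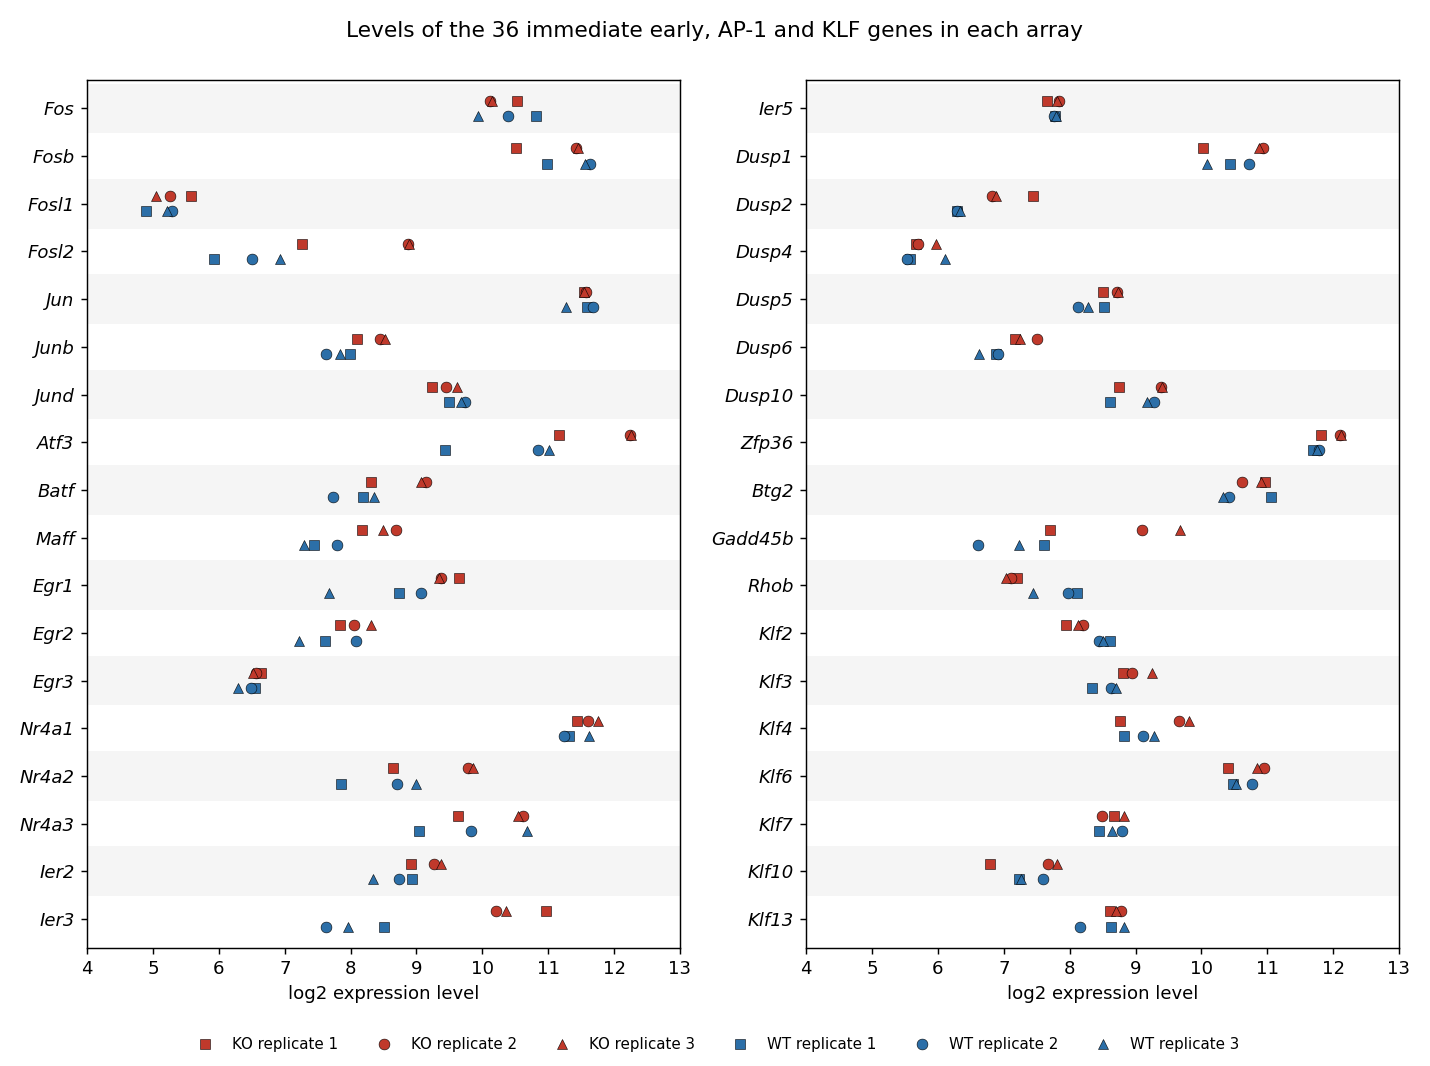
Deposited log2 expression level (x axis) of each of the 36 genes (rows) in the 3 KO arrays (red, upper points of a row) and the 3 WT arrays (blue, lower points), with squares, circles and triangles for replicates 1, 2 and 3. The KO points of Ier3 lie between 10.21 and 10.96, away from the WT points at 7.62 to 8.50, while the points of Fos, Jun and Fosb overlap, and the KO squares are often left of the other KO points.

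**Figure D2:**
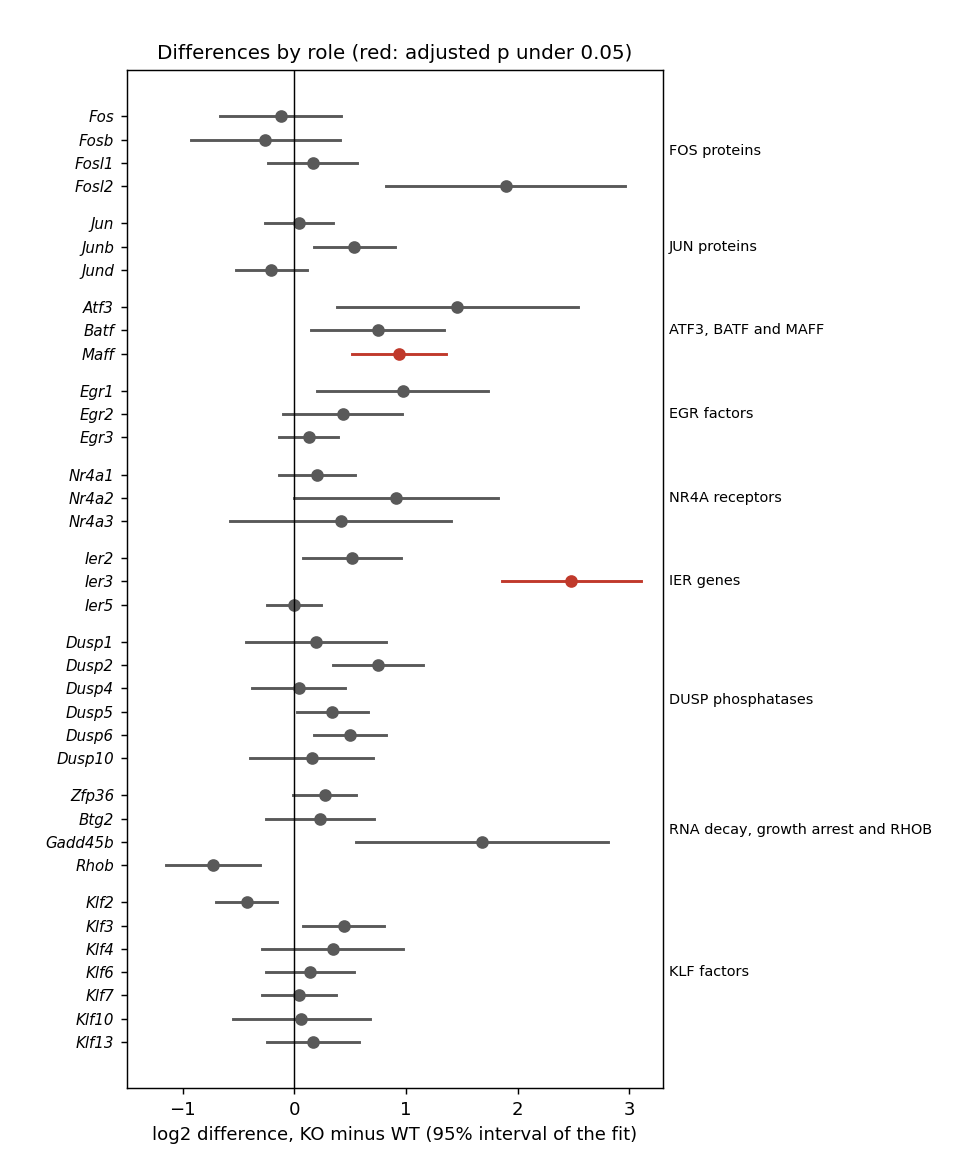
Log2 difference, KO minus WT (x axis), of each gene, ordered by role, with bars for the 95% interval of the limma fit on 3 KO and 3 WT arrays. Red marks Ier3 (2.48) and Maff (0.94), the members with an adjusted p under 0.05, and most other points lie right of 0.

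Promoter sequence was available for 30 of the members from RefSeq (GRCm38.p6), as 250 bases before and 50 after a gene's start. Egr1, Egr3, Fosl1, Ier2, Dusp4 and Klf10 had none. Where a gene had several starts the first listed was used. Of 6 motifs searched on both strands, the EGR motif GCGNGGGCG was in 11 of 30 members' promoters (36.7%) and in 8.21% of 15613 promoters of tested genes. The members' promoters had a median GC content of 64.7%, against 57.7% for all, and its part in that share was not tested. The 11 were those of Btg2, Dusp2, Fosb, Fosl2, Gadd45b, Klf2, Klf3, Klf4, Nr4a1, Nr4a2 and Zfp36. The NF-kB motif was in 6 (20.0% against 9.18%), the cyclic AMP response element TGACGTCA in 2 (6.67% against 2.49%) and the CArG box, which serum response factor binds, in 2 (6.67% against 1.42%). The AP-1 motif TGANTCA was in 0 of 30 (against 6.98%), which says only that these letters were not in these windows. The interferon regulatory factor (IRF) motif, GAAA repeated after a gap of 2 bases, was in 1 (3.33% against 3.32%), that of Fosl2.

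The 250 bases before the start of 4 members are shown 5′ to 3′, with matches to these 6 motifs in capitals. They are those of Ier3, which had the largest difference of all members, of Fosl2 and Gadd45b, which had the next largest differences, and of Zfp36, which holds a CArG box. The promoter of Maff, the other member called, held none of the 6 motifs and is not shown. A match is a description of the letters and not a bound site. The Ier3 promoter (chr17:35821463-35821712, plus strand) has an NF-kB match from 92 to 83 bases before the start. That of Fosl2 (chr5:32136222-32136471, plus strand) has an IRF match at 221 to 212 bases, a pair of overlapping NF-kB matches between 182 and 172 bases and an EGR match at 79 to 71 bases. That of Gadd45b (chr10:80929841-80930090, plus strand) has an EGR match at 30 to 22 bases. That of Zfp36 (chr7:28379229-28379478, minus strand) has an EGR match at 105 to 97 bases and a CArG box at 58 to 49 bases.
Ier3: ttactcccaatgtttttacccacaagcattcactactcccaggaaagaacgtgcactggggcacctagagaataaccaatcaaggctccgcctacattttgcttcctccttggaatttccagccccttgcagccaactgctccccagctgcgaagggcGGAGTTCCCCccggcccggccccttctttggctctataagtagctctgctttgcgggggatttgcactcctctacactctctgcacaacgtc
Fosl2: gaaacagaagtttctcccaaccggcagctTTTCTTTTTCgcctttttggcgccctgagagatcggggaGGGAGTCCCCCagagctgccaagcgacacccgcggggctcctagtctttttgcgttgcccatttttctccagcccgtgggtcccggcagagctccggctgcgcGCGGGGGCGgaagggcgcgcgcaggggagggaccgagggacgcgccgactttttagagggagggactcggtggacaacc
Gadd45b: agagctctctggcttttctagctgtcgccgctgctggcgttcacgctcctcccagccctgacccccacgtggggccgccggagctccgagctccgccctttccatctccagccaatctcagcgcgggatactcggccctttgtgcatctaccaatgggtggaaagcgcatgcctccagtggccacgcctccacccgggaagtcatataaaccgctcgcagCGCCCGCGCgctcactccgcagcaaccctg
Zfp36: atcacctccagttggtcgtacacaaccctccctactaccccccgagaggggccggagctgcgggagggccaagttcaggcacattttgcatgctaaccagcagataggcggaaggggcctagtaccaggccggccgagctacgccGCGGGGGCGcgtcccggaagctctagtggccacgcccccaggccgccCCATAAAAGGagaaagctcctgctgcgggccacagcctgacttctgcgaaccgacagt

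The FOS proteins are the AP-1 subunits that cannot pair with themselves. Of the 4 genes, 0 passed the test. Fos measured 10.53, 10.11 and 10.14 in KO replicates 1 to 3, against 10.82, 10.39 and 9.93 in WT replicates 1 to 3. Its groups overlapped, and the difference of -0.12 had a 95% interval of -0.66 to 0.42 (adjusted p = 0.874). Fosb measured 10.52, 11.42 and 11.45 in KO, against 10.97, 11.63 and 11.56 in WT, and the array numbered 1 was the lowest of each genotype (difference -0.26, SE 0.29, adjusted p = 0.752). Fosl1, which encodes FRA1, measured 5.04 to 5.58 in KO and 4.90 to 5.28 in WT (adjusted p = 0.734).

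Fosl2, which encodes FRA2, a FOS protein without a strong activation domain, had the largest difference of its family. It measured 7.25, 8.88 and 8.89 in KO, against 5.92, 6.50 and 6.93 in WT. All 3 KO values lay above the WT range, the lowest of them, in KO replicate 1, by 0.32. The difference was 1.89 (SE 0.46, a 3.71-fold ratio) and missed the threshold in the fit of all 6 arrays (adjusted p = 0.0708). Without KO replicate 1 it was 2.44 (adjusted p = 0.00241). Over the 14 alternatives tried its adjusted p ran from 0.00113 to 0.233, and 5 of them called it.

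The JUN proteins are the AP-1 subunits that pair with FOS proteins and with each other. Jun measured 11.54, 11.58 and 11.55 in KO, against 11.59, 11.68 and 11.27 in WT. The 3 KO arrays spanned 0.038 and lay inside the WT range, and the difference of 0.044 had an interval of -0.26 to 0.35 (adjusted p = 0.923). Junb, a JUN protein induced with FOS in many immune responses, measured 8.09, 8.44 and 8.53 in KO, against 7.98, 7.63 and 7.83 in WT. Its KO values all lay above the WT range, by 0.11 at the closest, with a difference of 0.54 (SE 0.15, adjusted p = 0.119). Without KO replicate 1 the Junb difference was 0.67 (adjusted p = 0.0346, with 0.0271 to 0.351 over the alternatives). Jund, the most constant JUN protein in many tissues, measured 9.23 to 9.61 in KO and 9.49 to 9.74 in WT (difference -0.21, adjusted p = 0.553).

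Other leucine zipper proteins that join AP-1 complexes or bind related sites all had positive differences, and 1 of the 3 passed. Maff measured 8.18, 8.69 and 8.49 in KO replicates, against 7.44, 7.80 and 7.30 in WT replicates. The groups did not overlap, and Maff rose by 0.94 (SE 0.18, 1.91-fold, adjusted p = 0.0301). Its call was lost without KO replicate 2 or 3 or WT replicate 1 or 3 (adjusted p 0.118, 0.110, 0.0951 and 0.107). Atf3, a stress-induced factor that mostly represses inflammatory genes in macrophages, measured 11.17, 12.24 and 12.26 in KO, against 9.43, 10.85 and 11.01 in WT. Both arrays numbered 1 were the lowest of their genotype by more than 1 log2 unit, and each KO value lay above every WT value, by 0.15 at the closest. The Atf3 difference was 1.46 (SE 0.46, 2.75-fold, adjusted p = 0.156). With both arrays numbered 1 left out it was 1.32 (adjusted p = 0.00276, with 0.00190 to 0.410 over the alternatives), and without WT replicate 1 alone 0.96. Batf, which pairs with JUN proteins and cooperates with IRF4 and IRF8 on DNA, measured 8.30, 9.15 and 9.07 in KO, against 8.19, 7.74 and 8.36 in WT. KO replicate 1 lay inside the WT range of Batf and the other 2 KO arrays above it (difference 0.75, SE 0.26, adjusted p = 0.193). Without KO replicate 1 the difference was 1.01 (adjusted p = 0.0214, with 0.0214 to 0.490 over the alternatives).

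Of 18 measured further AP-1 and leucine zipper factors, 2 rose and 1 fell. Creb1, the cyclic AMP response factor that helps switch on Fos and the Nr4a genes, rose by 0.72 (adjusted p = 0.00972). Atf6, a sensor of protein misfolding in the endoplasmic reticulum, rose by 0.93 (adjusted p = 0.0375), and Creb3l2, a related membrane-bound factor, fell by 0.68 (adjusted p = 0.0262). The median of these 18 was 0.080.

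EGR factors are zinc finger proteins induced through ERK signalling and serum response factor, and 0 of the 3 passed. Egr1 measured 9.65, 9.38 and 9.34 in KO, against 8.73, 9.06 and 7.67 in WT. The KO values spanned 0.31 and lay above the WT range, while WT replicate 3 was the lowest array of all. The difference was 0.97 (SE 0.33, 1.96-fold, adjusted p = 0.186), and no alternative called it (adjusted p 0.0670 to 0.369). Without WT replicate 3 the Egr1 difference was 0.56. Egr2 measured 7.83, 8.06 and 8.30 in KO, against 7.61, 8.08 and 7.21 in WT (difference 0.43, adjusted p = 0.432; 0.22 without WT replicate 3). For Egr2, too, WT replicate 3 was the lowest array, and the groups overlapped. Egr3 measured 6.52 to 6.64 in KO and 6.30 to 6.54 in WT (adjusted p = 0.678).

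NR4A proteins are nuclear receptors that act without a known ligand and are induced by antigen receptor and cyclic AMP signals. None of the 3 passed by limma, and 0 had an unadjusted p under 0.05. Nr4a1, which encodes NUR77, measured 11.43, 11.61 and 11.76 in KO, against 11.32, 11.25 and 11.63 in WT, with overlapping groups (difference 0.20, interval -0.14 to 0.54, adjusted p = 0.592). Nr4a2 measured 8.64, 9.78 and 9.86 in KO, against 7.86, 8.70 and 8.998 in WT. Nr4a3 measured 9.63, 10.61 and 10.54 in KO, against 9.04, 9.83 and 10.67 in WT. In both genes the array numbered 1 was the lowest of its genotype. The differences were 0.91 for Nr4a2 (SE 0.39, adjusted p = 0.312) and 0.42 for Nr4a3 (SE 0.42, adjusted p = 0.733). Without WT replicate 1 they were 0.58 for Nr4a2 and 0.011 for Nr4a3, and without WT replicate 3 that of Nr4a3 was 0.83. With both arrays numbered 1 left out, Nr4a2 differed by 0.97 (adjusted p = 0.0146, with 0.00715 to 0.646 over the alternatives).

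Among the IER genes Ier3 rose and the other 2 passed in neither direction. Ier3, also called IEX-1, a short-lived target of NF-kB and p53, measured 10.96, 10.21 and 10.36 in KO, against 8.50, 7.62 and 7.96 in WT. The lowest KO value lay 1.71 above the highest WT value. Ier3 rose by 2.48 (SE 0.27, 5.58-fold, adjusted p = 0.00260), and it was called under all 14 alternatives tried, with adjusted p from 0.000115 to 0.0194. The array numbered 1 was the highest of each genotype for Ier3, and without KO replicate 1 it rose by 2.26. Ier2, a nuclear protein of the first wave, measured 8.92, 9.26 and 9.38 in KO, against 8.94, 8.73 and 8.34 in WT (difference 0.52, adjusted p = 0.219). With both arrays numbered 1 left out, Ier2 differed by 0.79 and was called (adjusted p = 0.0411, with 0.0411 to 0.525 over the alternatives). Ier5, a cofactor of heat shock factor HSF1, measured 7.65, 7.84 and 7.81 in KO, against 7.77, 7.76 and 7.79 in WT. Its difference was -0.0043 with an interval of -0.25 to 0.24 (adjusted p = 0.992).

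The DUSP phosphatases remove phosphate from MAP kinases, and all 6 differences were above 0 while 0 passed. Dusp2, a nuclear phosphatase of activated leukocytes, measured 7.44, 6.82 and 6.89 in KO, against 6.28, 6.28 and 6.33 in WT. The WT arrays spanned 0.050, and every KO value was at least 0.48 higher. Its difference was 0.75 (SE 0.17, 1.68-fold, adjusted p = 0.0584). Without KO replicate 1, the array with the highest Dusp2 value, it was 0.55 and was called (adjusted p = 0.0322, with 0.0322 to 0.169 over the alternatives). Dusp6, a cytoplasmic phosphatase that acts on ERK and is itself induced by ERK, measured 7.16, 7.50 and 7.24 in KO, against 6.88, 6.91 and 6.63 in WT. Its groups did not overlap (difference 0.50, SE 0.14, adjusted p = 0.105), and no alternative called it (adjusted p 0.0509 to 0.321). Dusp5, a nuclear phosphatase that acts on ERK, measured 8.51 to 8.73 in KO and 8.13 to 8.52 in WT (adjusted p = 0.273). Dusp1, which acts on p38 and JNK and is a common marker of handled cells, measured 10.03, 10.93 and 10.87 in KO, against 10.43, 10.72 and 10.08 in WT (difference 0.20, adjusted p = 0.812). The lowest and the highest of the 6 Dusp1 values were both in KO. Dusp10 differed by 0.16 and Dusp4 by 0.038, with overlapping groups (adjusted p = 0.836 and 0.956).

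MAP kinases and their regulators from the same pathway were measured in 18 genes, of which 4 rose and 0 fell (median 0.32). Spred1 and Spred2, inhibitors of RAS and ERK signalling, rose by 0.86 and 0.99 (adjusted p = 0.0216 and 0.0465). Mapk8, which encodes the kinase JNK1, rose by 0.80 (adjusted p = 0.0361), and Elk3, a partner of serum response factor that can repress Fos, rose by 0.76 (adjusted p = 0.0460).

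The next genes act in RNA decay, growth arrest and cell shape, and 0 of the 4 passed. Zfp36, which encodes tristetraprolin, a protein that speeds the decay of cytokine RNAs, measured 11.82, 12.11 and 12.12 in KO, against 11.70, 11.78 and 11.76 in WT. The groups were separated by 0.041, with a difference of 0.27 (SE 0.12, adjusted p = 0.328). Gadd45b, which activates the p38 pathway after stress, measured 7.71, 9.10 and 9.67 in KO, against 7.60, 6.60 and 7.23 in WT. KO replicate 1 lay 0.10 above the highest WT array, and the other 2 KO arrays were far above it. The Gadd45b difference was 1.68 (SE 0.48, 3.21-fold, adjusted p = 0.120). Without KO replicate 1 it was 2.24 (adjusted p = 0.00553, with 0.00321 to 0.339 over the alternatives). Btg2, an antiproliferative protein that recruits RNA deadenylases, measured 10.61 to 10.97 in KO and 10.32 to 11.05 in WT (adjusted p = 0.692).

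Rhob, a short-lived GTPase of endosomes and the cytoskeleton, had the most negative difference of the members. It measured 7.20, 7.11 and 7.04 in KO, against 8.12, 7.97 and 7.45 in WT. The KO arrays spanned 0.16 and lay below the WT range, with WT replicate 3 nearest to them. The difference was -0.73 (SE 0.18, adjusted p = 0.0738), and without WT replicate 3 it was -0.93 (adjusted p = 0.0193, with 0.0193 to 0.230 over the alternatives).

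The 7 KLF factors differed by -0.43 to 0.44, and 0 passed. Klf2, known to keep lymphocytes quiescent and to drive the trafficking gene S1pr1 in T cells, measured 7.94, 8.20 and 8.13 in KO, against 8.61, 8.44 and 8.50 in WT. Its 3 KO values lay below the WT range by at least 0.24. The difference was -0.43 (SE 0.12, adjusted p = 0.103), and no alternative called it (adjusted p 0.0555 to 0.255). Klf3, a repressor that opposes KLF2 at shared target genes in B cells, measured 8.80, 8.95 and 9.24 in KO, against 8.34, 8.63 and 8.70 in WT. Klf3 thus lay above the WT range in all 3 KO arrays, by 0.10 at the closest (difference 0.44, SE 0.16, adjusted p = 0.209). Klf4, a factor of monocyte differentiation, measured 8.77, 9.65 and 9.81 in KO, against 8.82, 9.11 and 9.27 in WT. KO replicate 1 had the lowest Klf4 value of all arrays and the other 2 KO arrays the highest (difference 0.34, adjusted p = 0.635; 0.66 and adjusted p = 0.0534 without KO replicate 1, with 0.0534 to 0.938 over the alternatives). Klf6, Klf7, Klf10 and Klf13 had overlapping groups and differences of 0.14, 0.041, 0.062 and 0.16 (lowest adjusted p 0.747).

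Of the 10 other KLF genes, 0 rose and 0 fell by limma, and 0 had an unadjusted p under 0.05 (median -0.066). The largest differences were -0.32 for Klf17 (adjusted p = 0.344) and -0.25 for Klf8 (adjusted p = 0.602). Both were dim: Klf17 averaged 3.65 in KO and 3.96 in WT, below the lower quartile of the gene means. Klf8 averaged 5.04 and 5.29, below their median. Of 5 measured trafficking genes linked to KLF2, 2 rose and 0 fell. They were Ccr7, a lymph node homing receptor, by 1.24 (adjusted p = 0.0101), and Cd69, an activation antigen that holds S1PR1 inside the cell, by 0.94 (adjusted p = 0.0169). S1pr1 itself measured 4.07 to 5.24 in KO and 4.45 to 5.23 in WT (adjusted p = 0.880).

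The members varied among arrays within each genotype, and KO replicate 1 was low for most of them. It had the lowest KO value in 27 of 36 members (75%), against 31.1% of all genes. In WT the lowest array was replicate 1 for 15 members, replicate 2 for 10 and replicate 3 for 11. These are 41.7%, 27.8% and 30.6% of the members, against 30.8%, 29.6% and 39.6% of all genes. In 12 members (33.3%, against 13.6% of all genes) the array numbered 1 was the lowest of both genotypes. These were Atf3, Dusp10, Fosb, Fosl2, Jund, Klf3, Klf4, Klf6, Klf10, Nr4a2, Nr4a3 and Zfp36. The 33.3% depends on the separate shares of 75% in KO and 41.7% in WT, and an effect of the array number itself was not tested. Set against the mean of the WT arrays, the members shifted by a median of 0.14, 0.38 and 0.43 in KO replicates 1 to 3. Each WT array set against the mean of the other 2 shifted by -0.032, 0.081 and 0.021 in replicates 1 to 3. The neutrophil genes, all 11 above the WT mean in KO replicate 1, shifted by 4.52, 0.34 and 0.058 in the same KO arrays. In WT replicates 1 to 3 they shifted by 0.41, -0.11 and -0.36. Elane and Mpo, granule enzymes of neutrophil precursors, measured 7.13 and 7.21 in KO replicate 1, against 4.67 to 5.25 and 5.23 to 5.47 in WT arrays. Prtn3 and Ctsg of the same list lay closer to WT. They measured 5.87 and 5.09 in KO replicate 1, against 4.62 to 5.34 and 4.04 to 4.31 in WT arrays. The part of the neutrophil genes in the members' values was not tested. Of 8 macrophage and monocyte markers, 7 had negative differences, and by the test 0 were higher and 2 lower in KO arrays (median difference -0.97, range -2.46 to 0.41). This list was uneven within WT: it shifted by -0.75, 0.65 and 0.17 in WT replicates 1 to 3. In KO replicates 1 to 3 it shifted by -0.84, -0.99 and -1.21. Of 7 B cell markers 2 were higher and 0 lower (median 0.32, range -0.17 to 1.65). Of 7 T and NK cell markers 0 were higher and 1 lower (median -0.15, range -1.16 to 0.33), and of 8 conventional dendritic cell markers 2 were higher and 3 lower (median -0.28, range -6.32 to 1.78). Neither list moved evenly. The T and NK cell list, with 6 of 7 differences below 0, shifted by 0.34, -0.36 and -0.36 in KO replicates 1 to 3. In WT replicates 1 to 3 it shifted by 0.22, -0.074 and -0.23. The conventional dendritic cell list had 5 differences below 0 and 3 above. Clec9a had the difference of -6.32, while Xcr1 and Zbtb46 differed by 0.12 and -0.051 (adjusted p = 0.792 and 0.887). Cd8b1 was the lower T and NK cell marker, and the other 6 were not called. These counts therefore do not measure how many such cells were present. The part of these cell type markers and of the pDC markers in the members' differences was not tested.

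**Figure D3:**
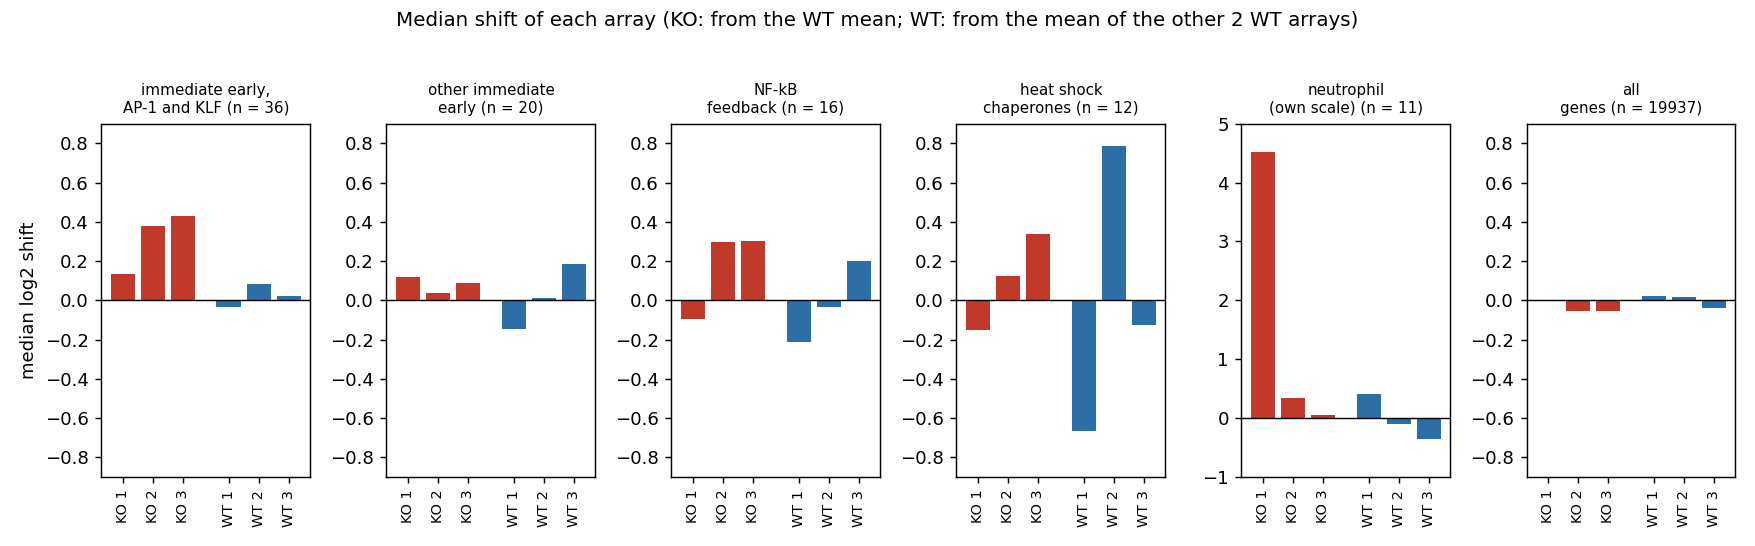
Median log2 shift (y axis) of 6 gene lists in each array, with KO arrays (red) set against the mean of the WT arrays and each WT array (blue) against the mean of the other 2. The immediate early, AP-1 and KLF genes are above 0 in all 3 KO arrays, by 0.14 to 0.43, while the heat shock chaperones range most among WT arrays, from -0.66 to 0.79, and the neutrophil panel, on its own scale, reaches 4.52 in KO replicate 1.

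Heat shock chaperones, which rise with heat and protein damage, were not called in either direction. Of 12 measured, 0 rose and 0 fell by limma, 1 had an unadjusted p under 0.05, and the median difference was 0.091. Hspa1a, an inducible HSP70 gene with a near-identical copy, measured 8.04, 8.77 and 9.01 in KO, against 7.39, 9.81 and 7.72 in WT. Its highest value was in WT replicate 2 and its lowest in WT replicate 1, so the spread within WT exceeded the difference of 0.30 (adjusted p = 0.880). The largest differences of the list were -0.78 for Bag3, a cochaperone (adjusted p = 0.322), and 0.73 for Dnajb4, an HSP40 protein (adjusted p = 0.189). The list's shifts in WT replicates 1 to 3 were -0.66, 0.79 and -0.13, where the members shifted by -0.032, 0.081 and 0.021. In KO replicates 1 to 3 the chaperones shifted by -0.15, 0.13 and 0.34, lowest in replicate 1 and highest in replicate 3, as the members were. Which part of any member's difference came from the handling of the cells was not tested.

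Other rapid genes moved in part. Of 20 further immediate early genes, 3 rose and 0 fell (median 0.090): Nfil3, a leucine zipper repressor needed for natural killer cell development, by 1.64 (adjusted p = 0.00473), Pim1, a survival kinase induced by STAT factors, by 1.47 (adjusted p = 0.0451), and Arid5a, which stabilises interleukin 6 RNA, by 1.20 (adjusted p = 0.0370). Of 16 genes listed as NF-kB feedback genes, 2 rose and 0 fell (median 0.17). The list also holds cytokine, chemokine and adhesion genes, so it is not limited to feedback regulators. Those that rose were Nfkbiz, a nuclear IkB protein, by 1.01 (adjusted p = 0.0307), and Socs3, an inhibitor of gp130 cytokine signals, by 0.99 (adjusted p = 0.0267). The NF-kB feedback genes shifted by -0.096, 0.30 and 0.30 in KO replicates 1 to 3 and by -0.21, -0.034 and 0.20 in WT replicates 1 to 3. Of 18 further relatives of the EGR, IER, DUSP, ZFP36, BTG and GADD45 families, 0 rose and 0 fell by limma, and 5 had an unadjusted p under 0.05. Gadd45g differed by 1.05 (adjusted p = 0.119) and Dusp16, a phosphatase that acts on JNK, by 0.81 (adjusted p = 0.226).

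**Figure D4:**
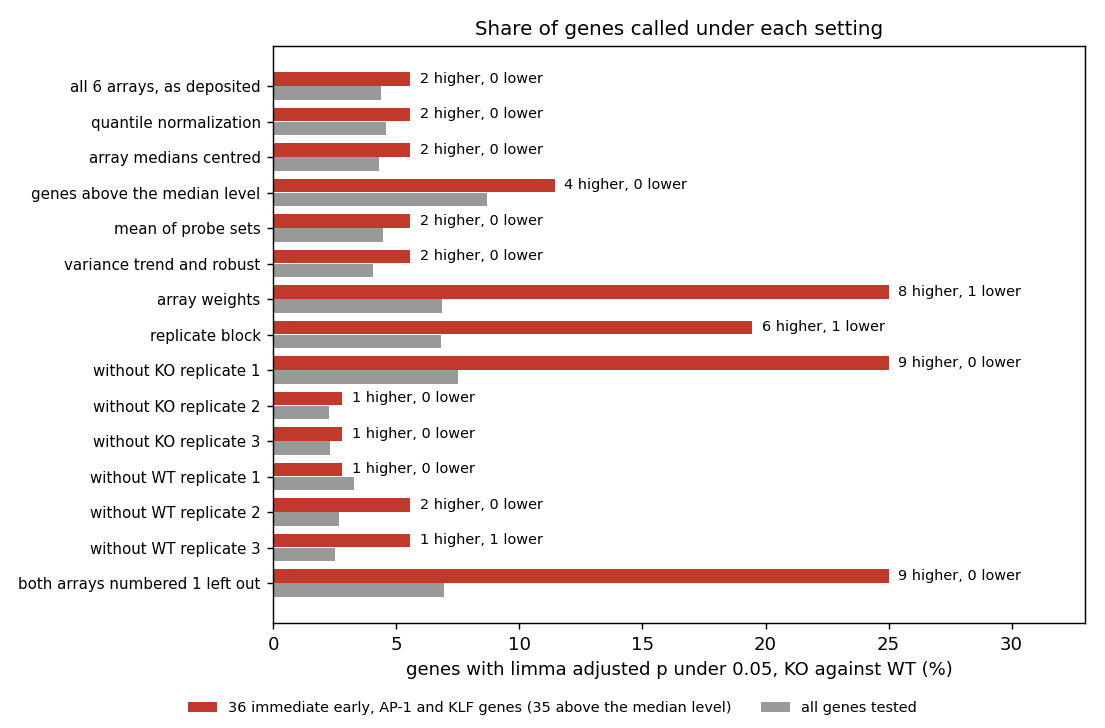
Percentage of genes with a limma adjusted p under 0.05, KO against WT (x axis), among the 36 members (red, with the numbers higher and lower in KO; 35 in the setting limited to genes above the median level) and among all genes tested (grey), for the fit as reported and 14 alternatives (rows). The members' share is 5.56% with all 6 arrays and 25% without KO replicate 1, where that of all genes is 4.38% and 7.52%.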

How the data were processed

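Gene expression was measured on 6 Affymetrix arrays. Per the labels' protocols, RNA was amplified by NuGen PICO SL and biotin-labelled. The deposited values are log2 expression levels of 34760 probe sets, on a scale inferred from their range. For the steps between scan and log2 values, the authors' software, background correction and normalization: not given in the sources used here. Because array medians nearly coincide, a uniform change of every transcript would not show. No detection calls were used. Precision is limited by the number of arrays.

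Names came from the platform's annotation, in which 21640 probe sets had 1 symbol. The brightest probe set by the 6-array mean stood for a gene, which gave 19937 genes. All 36 members had 1 probe set, each sharing a RefSeq transcript with its gene. Genotypes were compared with limma 3.58.1 in R 4.3.3 (lmFit and eBayes, no covariates, no filter on dim genes, two-sided, Benjamini-Hochberg over all genes), which was tested on simulated data. The simulated noise was independent between genes and arrays, with no deviating array. It therefore does not cover an array such as KO replicate 1 or a link between arrays of the same number. The members and lists were chosen with earlier results of these data known. All 36 members are named. Of each pathway and handling list, up to 4 called genes with the smallest adjusted p are named, or up to 2 with the largest differences where none passed. Cell type lists are given as counts, medians and ranges, with up to 3 markers named, and more of the neutrophil list. S1pr1, Hspa1a, S100a8, Elane, Mpo, Prtn3, Ctsg, Clec9a, Xcr1, Zbtb46 and Cd8b1 were named after their values were seen. The alternatives tried were quantile normalization, centred array medians, bright genes alone, averaged probe sets, robust eBayes with a variance trend, array weights, a block for the replicate number, omission of each array, and omission of both arrays numbered 1. Figures were drawn with matplotlib 3.10.9.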

Additional observations from a re-analysis of the deposited data

How the results depend on the processing

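Over the 36 members and 14 alternatives, 450 of 503 recomputed differences kept their direction and their side of the threshold, 29 passed it in the alternative alone, 4 (all Maff) no longer passed, and 20, none of them called, turned direction. The count of members that rose, 2 with all 6 arrays, was 4 among genes above the median level (where 4.77% of the 9968 genes tested were higher and 3.93% lower), 8 with array weights, 6 with a replicate block and 9 once both arrays numbered 1 were omitted. The count that fell, 0 with all 6 arrays, was 1 (Rhob) with array weights and 1 (Rhob) with the block. Leaving out single arrays gave 1 to 9 that rose and 0 to 1 that fell. The members' median difference lay between 0.21 and 0.39 when single arrays were left out. Quantile normalization turned Klf7 to -0.023, and array weights turned Ier5 to 0.034. With both arrays numbered 1 left out, Fosl1 turned to -0.091, Ier5 to 0.054 and Klf7 to -0.055. With single arrays left out, differences near 0 took both signs: Fos from -0.35 to 0.097, Fosb from -0.47 to 0.044, Jun from -0.077 to 0.13, Ier5 from -0.042 to 0.055, Dusp4 from -0.064 to 0.22, Dusp10 from -0.047 to 0.37, Klf7 from -0.050 to 0.13, Klf10 from -0.13 to 0.37 and Klf13 from -0.024 to 0.31. Leaving out 1 array also moved these uncalled differences by over 1.5 times from their value with all 6 arrays, given here as lowest and highest: Fosl1 from 0.024 to 0.29, Jund from -0.30 to -0.10, Egr3 from 0.054 to 0.18, Nr4a1 from 0.12 to 0.32, Dusp1 from 0.031 to 0.49, Klf4 from 0.14 to 0.66, Klf6 from 0.033 to 0.31 and Btg2 from 0.090 to 0.46. Atf3, Egr1, Egr2, Nr4a2 and Nr4a3 moved by as much, with values given above. The cause of these moves was not tested. In the whole table, 459 genes were higher and 415 lower in KO with all 6 arrays, against 716 and 647 with array weights, 707 and 655 with the block, and 741 and 641 with both arrays numbered 1 left out. Single arrays left out gave 249 to 780 higher and 202 to 719 lower, the most without KO replicate 1 and the fewest without KO replicate 2. Arrays with the same number correlated in their deviations from the group mean by 0.38, 0.097 and 0.25 for numbers 1 to 3. KO replicates 1 and 3 correlated best with the WT array of their own number, and KO replicate 2 with WT replicate 3 (0.20). Deviations within a group of 3 arrays sum to 0, so these correlations depend on each other and cannot decide whether the arrays were paired. The block turned no member's direction. Leaving out both arrays numbered 1 leaves 2 arrays per genotype.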
